A study of Homo sapiens with 16 samples.

Results

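The response to Corin was compared between 2 human leukaemia lines, gene by gene, as the log2 change with Corin over DMSO in U-937 minus the same change in SKNO-1. Members are all genes with enough counts to be tested, 19872 of the 60603 in the deposited table, and the contrast uses 8 of the 16 libraries: 2 libraries each of U-937 with DMSO, U-937 with Corin, SKNO-1 with DMSO and SKNO-1 with Corin. Cells were treated for 24 h, with Corin at 0.1 µM or the solvent DMSO, and total RNA was sequenced. The other 8 libraries hold both lines with all-trans retinoic acid (ATRA) at 0.1 µM, alone or together with Corin at 0.1 µM. The contrasts that sorted the genes did not compare them. They entered the same fit, so the gene filter, the scaling and the estimate of spread behind the sorting used them too. Both lines grew in RPMI1640 with serum and antibiotics, and the SKNO-1 medium also held GM-CSF at 10 ng/mL, so that line and medium cannot be told apart in any difference below. Each line is 1 cell line and stands for itself, not for a subtype of leukaemia. Nothing in the labels says that the 2 libraries of a group came from separate cultures, so the p-values measure only the spread between these samples, which may be technical.

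Corin joins an inhibitor of the histone demethylase LSD1 (KDM1A) to one of histone deacetylases, and acts on the CoREST complex, which holds LSD1, HDAC1 or HDAC2 and the scaffold RCOR1. CoREST removes activating marks from histones at enhancers and promoters, and transcription factors such as GFI1 and GFI1B bring it to DNA. In myeloid cells LSD1 and its partners are known to keep genes of monocyte and granulocyte maturation low, and block of LSD1 is known to raise surface markers such as CD11b and CD86. SKNO-1 carries the RUNX1-RUNX1T1 fusion of core-binding-factor leukaemia and depends on GM-CSF, whereas U-937 cells resemble monocytes.

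The libraries carried the marks of the lines in their labels. RUNX1T1 had 3181 to 5162 counts in each of the 4 SKNO-1 libraries compared and at most 1 in those of U-937, while HOXA9 and HOXA10 had 1582 to 3196 counts in U-937 and 0 in SKNO-1. CD33 and PTPRC, which mark myeloid and all white blood cells, were present in every library. Of 8 defining markers of other blood cells, 6 had at most 4 counts in any of these libraries, among them CD3E, CD3D, MS4A1, HBB and PPBP, while NKG7 had 2159 to 3345 counts in U-937. Totals ran from 28.4 to 37.6 M estimated counts per library. The SKNO-1 DMSO pair was less alike than the others: the log2 difference between its libraries had an SD of 0.362 over 9123 genes, against 0.110 to 0.210 in the other 7 pairs, and went with GC content (r = 0.793 across genes). The difference within the U-937 DMSO pair also went with GC content (r = 0.568), at a smaller SD of 0.178. In the remaining pairs r ran from -0.410 to 0.376. Levels below are counts scaled to library size (CPM), and differences are on the log2 scale, positive where the Corin response was higher in U-937. Gene positions are on GRCh38, from GENCODE release 44. A gene is called where the quasi-likelihood test of edgeR gave an adjusted p under 0.05, with the method of Benjamini and Hochberg over all genes tested.

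Corin called 2085 genes in U-937 (10.5% of all tested), of which 1314 rose (6.61%) and 771 fell (3.88%). In SKNO-1 it called 6744 genes (33.9%), of which 3706 rose (18.6%) and 3038 fell (15.3%). This split was 3531 rises and 3768 falls without SKNO-1 DMSO replicate 2, where the majority turned, and 5462 and 2558 with the trend with GC content removed from each library. The difference between the responses was called for 2538 genes (12.8%): the response was higher in U-937 for 1050 (5.28%) and lower for 1488 (7.49%). Among the 1184 with a difference of at least 1 on the log2 scale, 212 were higher and 972 were lower in U-937. The median difference over all genes was -0.009. In bulk RNA, a change within every cell and a change in how many cells of a culture express a gene cannot be told apart, nor can fewer cells and less RNA per cell.

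Genes were sorted by these calls. A shared response is called in both lines in 1 direction, which 743 genes did by rising and 382 by falling. A restricted response is called in 1 line, not called in the other, and called as different between them: 167 genes rose and 93 fell in U-937 only by this rule, and 1056 rose and 721 fell in SKNO-1 only. An opposite response is called in both lines with different signs and with the difference called, which held for 51 genes that rose in U-937 and fell in SKNO-1 and 66 of the reverse kind. A further 108 genes had a called difference with neither response called, 4308 were called in 1 line without a called difference and stay unresolved, and 12177 had no call. A gene of the restricted classes may still respond in the other line below what these libraries could call. With 4 libraries a line, the counts moved with single libraries. Without 1 SKNO-1 Corin library the difference was called for 1614 (replicate 1 left out) or 1524 genes (replicate 2), without replicate 1 of the U-937 DMSO pair for 1651, and without replicate 2 of the SKNO-1 DMSO pair for 4471, of which 2579 were higher in U-937, so that the majority direction turned. Without that same library the SKNO-1-restricted class held 1176 rises and 1857 falls and the opposite class 226 genes that rose in U-937 and 127 that rose in SKNO-1, so that both of these splits turned as well. In the restricted and opposite classes, no gene's difference turned in sign when any 1 of the 8 libraries was left out. These classes ask for a called difference in the same libraries, so a kept sign is no separate support. In a fit of only the 8 libraries, 41.3% of the U-937-restricted rise and 38.7% of its fall kept their class. For SKNO-1 these shares were 61.6% and 39.4%, and for opposite genes 43.1% (up in U-937) and 48.5% (up in SKNO-1).

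**Figure D1:**
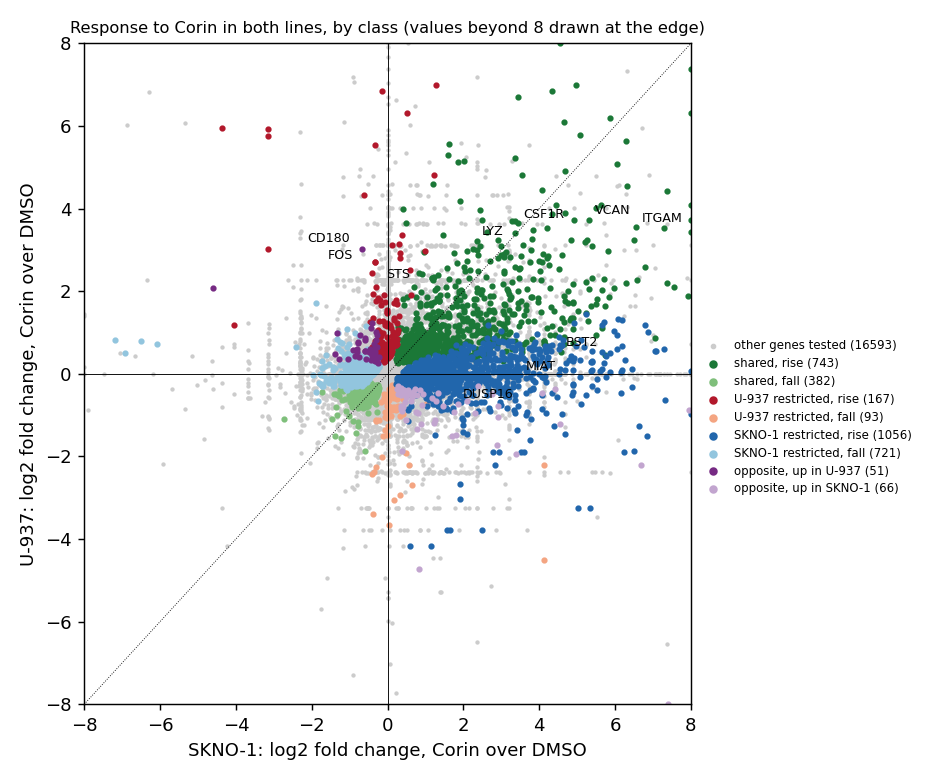
Each point is a gene, with its log2 fold change with Corin over DMSO in SKNO-1 on the x axis and in U-937 on the y axis, coloured by class, and the dotted line marks equal responses. The 743 genes of the shared rise spread below the dotted line more than above it, the 1056 genes of the SKNO-1-restricted rise lie along the x axis, and points in straight rows far from the origin are genes with few counts in 1 line.

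Genes that rose in both lines held markers of monocyte and macrophage maturation. ITGAM (CD11b, ENSG00000169896.18, chr16:31259967-31332892, plus strand), the alpha chain of the complement receptor integrin of monocytes and granulocytes, was at 4.65 and 4.42 CPM in the U-937 DMSO libraries and at 55.5 and 50.3 CPM with Corin. In SKNO-1 it was at 0.450 and 0.338 CPM with DMSO and at 39.05 and 35.7 CPM with Corin. In each line both Corin libraries lay above both DMSO libraries. The choice of genes named by rank required this, and groups without overlap in both lines were found for 31.1% of all genes. SKNO-1 started from the lower level of ITGAM. The log2 change was 3.54 (SE 0.106, adjusted p = 1.15e-13) in U-937 and 6.56 (SE 0.151, adjusted p = 4.91e-16) in SKNO-1, and the difference was -3.02 (SE 0.214, adjusted p = 1.97e-08). ITGAM's promoter is shown here because this gene rose most in SKNO-1 among the 4 named genes of the shared rise and holds a match to the core letters of the RUNX site, the DNA element that the fusion protein of SKNO-1 shares with normal RUNX1. The window runs from 250 bases before to 50 after the RefSeq start (chr16:31259725-31260024, plus strand, GRCh38.p14), with the match in capitals:
ITGAM promoter: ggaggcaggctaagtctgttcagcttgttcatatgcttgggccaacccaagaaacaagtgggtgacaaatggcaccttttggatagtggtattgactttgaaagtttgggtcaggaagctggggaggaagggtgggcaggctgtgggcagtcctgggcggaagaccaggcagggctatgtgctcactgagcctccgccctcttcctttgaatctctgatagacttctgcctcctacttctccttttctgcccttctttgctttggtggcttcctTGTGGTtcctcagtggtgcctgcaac
The match, TGTGGT, lies 25 bases after the start on the gene's strand. Both strands were searched, and 9.98% of the 11507 promoters of tested genes that the RefSeq table holds had this motif, against 12.2% of those of the shared rise, 15.4% of the U-937-restricted rise and 8.38% of the SKNO-1-restricted rise. It was also in 14.5% of those of the U-937-restricted fall and 11.8% of the SKNO-1-restricted fall, so a higher share was not limited to genes that rose. Among shared-rise promoters, 5.52% held the letters GAGGAAGT of the PU.1 site (2.77% of all), 9.02% AGATAA of the GATA site (5.66% of all), 9.39% the C/EBP motif (7.33% of all), 3.13% the GFI1 motif (2.58% of all) and 5.71% the interferon response element spelled out further on (3.19% of all). A match is a description of the letters, and no binding was measured.

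MS4A4A (ENSG00000110079.18, chr11:60185657-60318080, plus strand), a membrane protein of macrophages, was at 2.33 and 2.85 CPM in U-937 with DMSO and at 50.3 and 37.5 with Corin. Its SKNO-1 libraries held 0.330 and 0.366 CPM with DMSO and 18.4 and 16.7 with Corin. The rise was larger in SKNO-1, with a difference of -1.55 (SE 0.332, adjusted p = 0.00364). VCAN (ENSG00000038427.16, chr5:83471618-83582303, plus strand) encodes versican, a matrix proteoglycan that classical monocytes make. It went from 1.90 and 1.64 to 24.2 and 22.9 CPM in U-937 and from 1.29 and 1.18 to 52.1 and 46.4 CPM in SKNO-1. The Corin libraries of the 2 lines ended at different levels, and the difference of the responses was -1.58 (SE 0.235, adjusted p = 0.000131). HLA-DMA (ENSG00000204257.15, chr6:32948613-32969094, minus strand) loads peptides on MHC class II molecules. Its levels were 2.45 and 1.90 CPM with DMSO and 16.98 and 14.4 with Corin in U-937, and 1.35 and 0.733 CPM with DMSO and 11.7 and 12.1 with Corin in SKNO-1. It rose by 2.85 in U-937 and by 3.52 in SKNO-1 on the log2 scale, and the difference of -0.67 (SE 0.283, adjusted p = 0.132) did not pass the test, though it did with the trend with GC content removed (adjusted p = 0.0274) and without SKNO-1 DMSO replicate 1 (adjusted p = 0.00921).

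The list of 31 monocyte and macrophage genes, all of which had enough counts, had 20 members that rose in U-937 and 0 that fell, and 19 that rose and 2 that fell in SKNO-1. Of all genes, 6.61% rose and 3.88% fell in U-937, and 18.6% rose and 15.3% fell in SKNO-1. The list's median change was 0.939 in U-937 and 0.961 in SKNO-1, against 0 and 0.003 over all genes. The 2 lines differed in which members moved more: the difference was higher in U-937 for 4 and lower for 10, against 5.28% and 7.49% of all genes. LYZ, which encodes the bacterial wall enzyme lysozyme, rose more in U-937, from 208 and 236 to 2264 and 1887 CPM, than in SKNO-1, from 61.7 and 68.8 to 343 and 322 CPM (difference 0.88, SE 0.144, adjusted p = 0.000377). S100A8, a calcium-binding alarmin of monocytes and neutrophils, was at 0.423 and 0.262 CPM in U-937 with DMSO and at 8.11 and 5.91 with Corin, and at no more than 0.0846 CPM in any of the 4 SKNO-1 libraries (difference 4.96, SE 1.09, adjusted p = 0.00423). S100A12 had 0 counts in the U-937 DMSO pair and 53 in the Corin pair, at least 15.9-fold higher (the DMSO pair set at 3 counts in all), but SKNO-1 had 0 counts in all 4 libraries and the difference was not called. NCF1, a subunit of the phagocyte oxidase whose reads its pseudogenes share, had a higher response in U-937 (2.00) that is uncertain for that reason. The integrin chains ITGAX and ITGB2, which pair as CD11c/CD18, rose in both lines and more in SKNO-1, with differences of -2.75 and -1.02. So did CD86, a costimulatory ligand for T cells, which went from 0.272 and 0.393 to 5.64 and 5.06 CPM in U-937 and from 0.960 and 1.04 to 49.2 and 42.1 CPM in SKNO-1 (difference -1.50, SE 0.387, adjusted p = 0.0151). LY96, the partner of TLR4 in sensing lipopolysaccharide, rose in both (3.20 and 5.22), while TLR4 itself fell in SKNO-1 (-0.39) and had a value of 0.30 in U-937 (adjusted p = 0.0620). CSF1R, the receptor for M-CSF, went from 0.665 and 0.885 to 10.3 and 9.14 CPM in U-937 and from 0.330 and 0.366 to 4.32 and 3.31 CPM in SKNO-1, and its difference of 0.21 (SE 0.414, adjusted p = 0.851) did not pass the test. CYBB, the catalytic subunit of the phagocyte oxidase, had 0 counts in the SKNO-1 DMSO pair and 12 with Corin, at least 4.19-fold higher, and rose from 16.8 and 17.6 to 74.8 and 65.8 CPM in U-937.

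MHC class II genes rose in both lines: of 8 members tested, 6 rose in U-937 and 8 in SKNO-1, against 6.61% and 18.6% of all genes. Their medians were 1.64 and 2.06. The one member with a called difference was CIITA, the coactivator that switches on the class II genes, at 6.35 and 5.08 CPM in U-937 with DMSO and 15.9 and 15.99 with Corin, and at 22.2 and 20.5 CPM with DMSO and 35.5 and 36.7 with Corin in SKNO-1 (difference 0.72, SE 0.211, adjusted p = 0.0296). HLA-DPA1 and HLA-DPB1, the 2 members not called in U-937, had 2 and 3 counts in its DMSO pair and 5 and 4 with Corin, a depth at which a change could not be detected. Reads of HLA genes can be split among near-identical paralogs and alleles, so the values of HLA-DRB1 and its neighbours are uncertain.

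Among the 743 genes of the shared rise, 247 had a called difference, of which 217 rose more in SKNO-1 and 30 rose more in U-937. The median change of these 743 genes was 0.920 in U-937 and 1.458 in SKNO-1. Of the 30, TGM2, the transglutaminase of macrophages, had 1 count in the U-937 DMSO pair and 65 with Corin, a ratio of 58.4 (95% interval 10.1 to 2340, counting error only), and went from 2.79 and 2.25 to 7.16 and 8.31 CPM in SKNO-1. CDKN1A, the cell-cycle inhibitor p21 and a standard readout of histone deacetylase inhibition, went from 2.42 and 2.72 to 7.93 and 7.98 CPM in U-937 and from 4.92 and 5.13 to 21.3 and 18.01 CPM in SKNO-1. Its difference was -0.34 (SE 0.241, adjusted p = 0.416) and did not pass the test. Of the 11 tested genes on the list of those that histone deacetylase inhibitors induce, 5 rose in U-937 and 4 in SKNO-1, against 6.61% and 18.6% of all genes. The difference was called for 2, against 12.8% of all genes: KLF6, a zinc-finger factor, was higher in U-937 (0.66, SE 0.145, adjusted p = 0.00446) and CLU, the chaperone clusterin, was lower (-0.89, SE 0.214, adjusted p = 0.00899). Without SKNO-1 DMSO replicate 2, more members of that list had a higher response in U-937, as did more of all genes.

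Shared falls were smaller, with a median of -0.416 in U-937 and -0.521 in SKNO-1 over 382 genes. They were also less stable: in a fit of only the 8 libraries 125 of the 382 kept their class (32.7%), against 65.7% of the shared rise. IGLL1 (ENSG00000128322.7, chr22:23573125-23580302, minus strand), a surrogate immunoglobulin light chain of early B-cell precursors, fell from 8.13 and 6.95 to 2.74 and 2.58 CPM in U-937 and from 133 and 79.4 to 39.6 and 41.4 CPM in SKNO-1. The SKNO-1 DMSO libraries stood apart here, and the difference of -0.11 (SE 0.287, adjusted p = 0.908) did not pass the test. With the GC trend removed it did (adjusted p = 0.00692), and without SKNO-1 DMSO replicate 1 its value was -0.55. EBF3 (ENSG00000108001.13, chr10:129835233-129973053, minus strand), a transcription factor of the early B-cell factor family, fell from 12.2 and 13.2 to 6.31 and 6.38 CPM in U-937 and from 13.1 and 15.8 to 5.36 and 6.03 CPM in SKNO-1 (difference 0.34, SE 0.234, adjusted p = 0.395, not called). LRMP (ENSG00000118308.15, chr12:25004342-25108335, plus strand), a lymphoid-restricted membrane protein, went from 24.8 and 23.9 to 12.1 and 9.96 CPM and from 38.7 and 38.8 to 20.7 and 20.5 CPM in the same order of lines (difference -0.23, SE 0.148, adjusted p = 0.362, not called). In 29 of the 382 genes the size of the fall differed, and 27 of those fell more in SKNO-1. KIT, the stem cell factor receptor, was one of the other 2: it was at 1.03 and 0.754 CPM in U-937 with DMSO and 0.180 and 0.314 with Corin, and went from 434 and 491 to 313 and 297 CPM in SKNO-1 (difference -1.28, SE 0.328, adjusted p = 0.0127).

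Opposite responses were called for 117 genes, and the 3 with the largest smaller change of each kind are described first. CD180 (ENSG00000134061.5, chr5:67179613-67196799, minus strand), a surface receptor related to the Toll-like receptors, was at 3.93 and 4.88 CPM in U-937 with DMSO and rose to 36.5 and 34.3 CPM with Corin. In SKNO-1 it was at 8.91 and 8.29 CPM with DMSO and fell to 4.97 and 5.78 CPM. The lines thus changed places: SKNO-1 held more CD180 RNA with DMSO and U-937 held more with Corin, and the difference was 3.69 (SE 0.190, adjusted p = 3.4e-10). MGLL (ENSG00000074416.14, chr3:127689062-128052190, minus strand), a lipase that breaks down monoacylglycerols, rose from 50.3 and 46.2 to 82.1 and 83.7 CPM in U-937 and fell from 24.2 and 18.97 to 12.6 and 12.4 CPM in SKNO-1 (difference 1.57, SE 0.148, adjusted p = 6.8e-07). CXorf21 (ENSG00000120280.5, chrX:30558809-30577766, minus strand), which encodes an adaptor of endosomal Toll-like receptor signalling, rose from 41.7 and 42.3 to 76.4 and 63.8 CPM in U-937 and fell from 18.8 and 18.9 to 11.03 and 11.03 CPM in SKNO-1 (difference 1.51, SE 0.148, adjusted p = 1.1e-06). That no Corin library overlapped a DMSO library of its line in these genes was part of how they were chosen, and held in both lines for 31.1% of all genes.

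Members of the fixed lists fell in this class too. LMO2, a bridging protein of blood stem cell transcription complexes, was at 46.8 and 52.1 CPM in U-937 with DMSO and 67.2 and 59.1 with Corin, and dropped from 103 and 93.9 to 42.3 and 39.2 CPM in SKNO-1 (difference 1.63, SE 0.138, adjusted p = 1.84e-07). PIM1, a kinase gene induced by cytokines through STAT5, rose from 45.1 and 50.5 to 96.4 and 96.9 CPM in U-937 and fell from 397 and 366 to 312 and 306 CPM in SKNO-1 (difference 1.32, SE 0.128, adjusted p = 9.86e-07). RNASE2, a granule ribonuclease of eosinophils, went from 122 and 129 to 324 and 262 CPM in U-937 and from 142 and 137 to 108 and 102 CPM in SKNO-1 (difference 1.64, SE 0.138, adjusted p = 1.76e-07). In U-937 the 2 Corin libraries were further apart for RNASE2 than the DMSO libraries, and both lay above them.

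The reverse pattern, a fall in U-937 with a rise in SKNO-1, was led by DUSP16 (ENSG00000111266.8, chr12:12473282-12562863, minus strand), a phosphatase that switches off the stress kinases JNK and p38. Its levels were 23.7 and 22.2 CPM with DMSO and 13.9 and 13.9 with Corin in U-937, and 2.88 and 2.54 CPM with DMSO and 9.47 and 10.1 with Corin in SKNO-1. The lines came closer together with Corin, and the difference was -2.57 (SE 0.195, adjusted p = 4.59e-08). ZC3H6 (ENSG00000188177.14, chr2:112275597-112340059, plus strand), a CCCH zinc-finger protein, fell from 35.1 and 34.5 to 21.96 and 21.9 CPM in U-937 and rose from 4.14 and 5.61 to 7.91 and 7.14 CPM in SKNO-1 (difference -1.29, SE 0.181, adjusted p = 6.96e-05). SV2B (ENSG00000185518.11, chr15:91099950-91302565, plus strand), a synaptic vesicle glycoprotein, fell from 5.23 and 6.81 to 4.21 and 3.83 CPM and rose from 7.68 and 6.79 to 16.1 and 16.7 CPM in the same lines (difference -1.76, SE 0.229, adjusted p = 3.02e-05). SOCS2, a feedback inhibitor of cytokine signalling, fell from 10.7 and 10.03 to 6.93 and 7.51 CPM in U-937 and rose from 109 and 106 to 187 and 184 CPM in SKNO-1 (difference -1.31, SE 0.157, adjusted p = 1.19e-05). PIM1 and SOCS2, both on the list of STAT5 target genes, thus moved in opposite senses within each line. MSI2, an RNA-binding protein of stem cells, fell from 53.7 and 56.6 to 40.2 and 43.3 CPM and rose from 49.1 and 60.2 to 78.2 and 79.7 CPM (difference -0.93, SE 0.142, adjusted p = 0.00017).

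**Figure D2:**
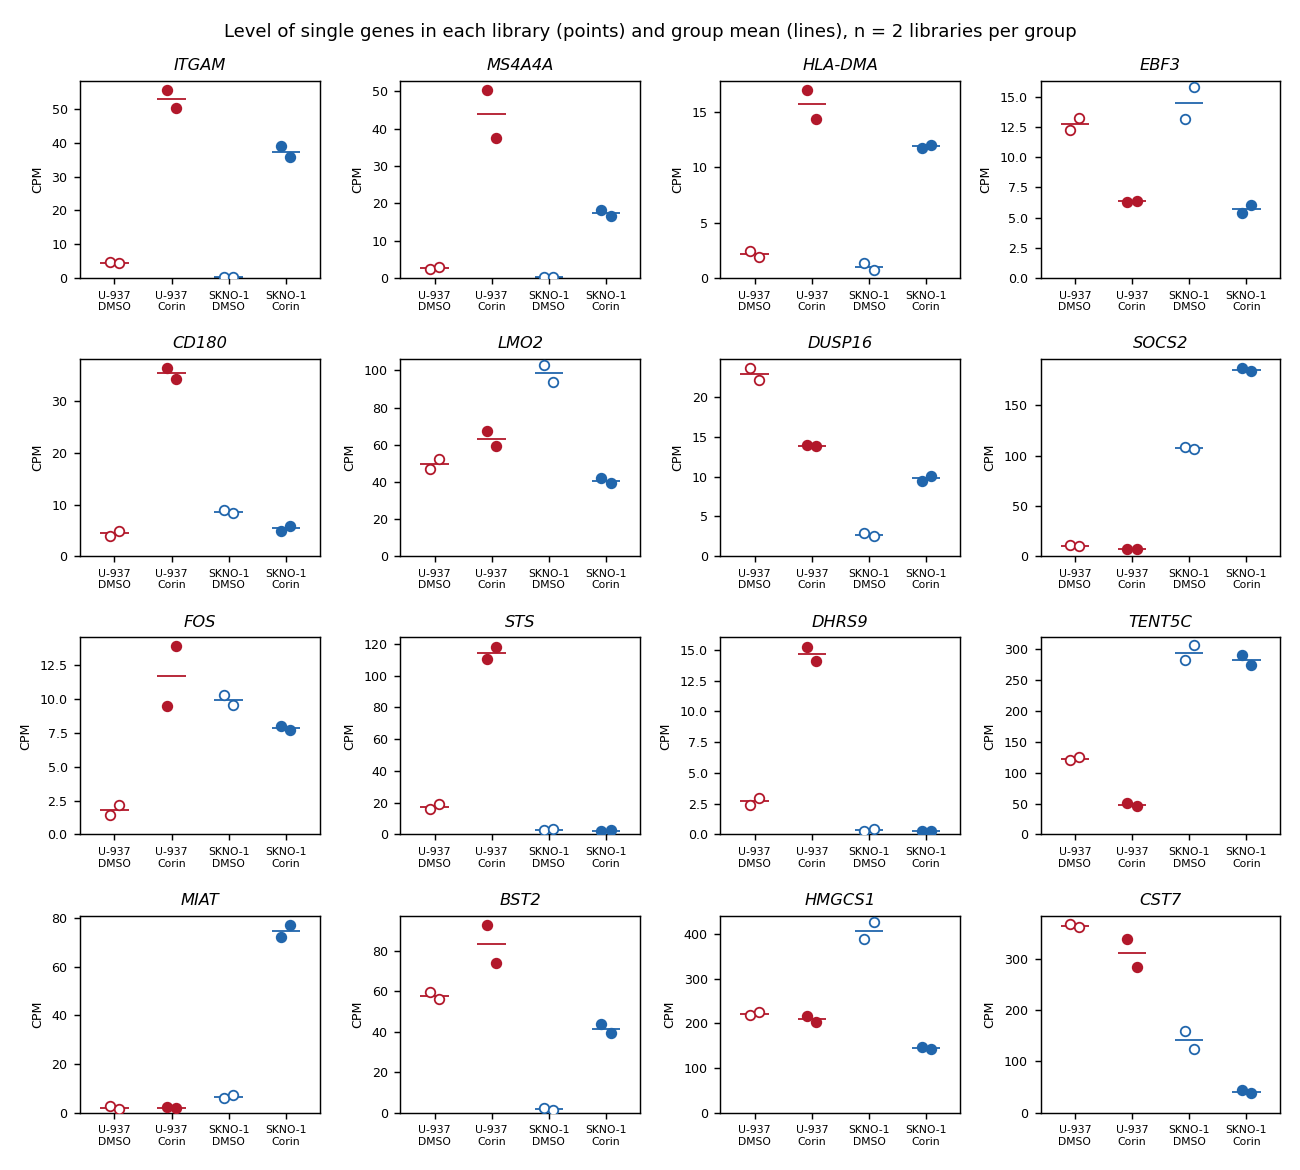
Each panel shows a gene in CPM on a linear axis from 0, with 1 point per library and a line at the mean of the 2 libraries of a group, red for U-937 and blue for SKNO-1, open for DMSO and filled for Corin. ITGAM, MS4A4A and HLA-DMA are higher with Corin in both lines, CD180 and LMO2 move up in U-937 and down in SKNO-1, DUSP16 and SOCS2 the other way, and MIAT is high only in the 2 SKNO-1 Corin libraries.

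Responses restricted to U-937 by their calls were few, and most were of genes that both lines expressed. Of the 167 that rose in U-937, 149 had at least 1 CPM in SKNO-1 and 147 of those had a log2 change under 0.5 in size there. FOS (ENSG00000170345.10, chr14:75278826-75282230, plus strand), an immediate-early gene that encodes a subunit of the AP-1 factor, was at 1.45 and 2.16 CPM in U-937 with DMSO and at 9.49 and 13.9 with Corin. SKNO-1 held 10.3 and 9.61 CPM with DMSO and 8.03 and 7.72 with Corin, and the U-937 Corin libraries lay near the SKNO-1 DMSO level (difference 3.03, SE 0.266, adjusted p = 2.91e-07). STS (ENSG00000101846.7, chrX:7147237-7804358, plus strand), the steroid sulfatase, went from 15.8 and 19.1 to 110 and 118 CPM in U-937, and was at 2.52 and 3.21 CPM with DMSO and 1.98 and 2.63 with Corin in SKNO-1 with overlap of the groups (difference 3.03, SE 0.225, adjusted p = 3.49e-08). KIF26B (ENSG00000162849.16, chr1:245154985-245709432, plus strand), a kinesin, went from 3.90 and 2.16 to 11 and 12.2 CPM in U-937 and was at 2.91 and 4.09 CPM with DMSO and 2.43 and 2.90 with Corin in SKNO-1 (difference 2.32, SE 0.414, adjusted p = 0.000999). In 18 of the 167 genes SKNO-1 held under 1 CPM. These included CCL2 (ENSG00000108691.9, chr17:34255274-34257208, plus strand), the chemokine that draws monocytes, at 3.17 and 5.83 CPM in U-937 with DMSO, 47.97 and 44.9 CPM with Corin and at most 0.360 CPM in SKNO-1 (difference 2.99, SE 0.757, adjusted p = 0.0141). This difference lost its call without SKNO-1 DMSO replicate 1 (adjusted p = 0.248) and in a fit of only the 8 libraries (adjusted p = 0.0837). DHRS9 (ENSG00000073737.16, chr2:169064789-169096167, plus strand), a dehydrogenase that acts on retinol, went from 2.42 and 2.98 to 15.3 and 14.1 CPM in U-937 and stayed at or under 0.451 CPM in SKNO-1 (difference 2.85, SE 0.432, adjusted p = 0.000164).

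Of the 93 genes whose fall was restricted to U-937, 87 had at least 1 CPM in SKNO-1, and the log2 change there was under 0.5 in size for all 87. TENT5C (ENSG00000183508.5, chr1:117606048-117628389, plus strand), a poly(A) polymerase that stabilises messenger RNAs, fell from 121 and 125 to 50.6 and 45.4 CPM in U-937. In SKNO-1 it was at 283 and 306 CPM with DMSO and 291 and 276 with Corin, and these groups overlapped (difference -1.30, SE 0.126, adjusted p = 9.25e-07). GRIP1 (ENSG00000155974.12, chr12:66347431-67069162, minus strand), a scaffold protein with PDZ domains, fell from 22.5 and 19.9 to 11.2 and 9.61 CPM in U-937 and was at 8.22 and 8.63 CPM with DMSO and 11.4 and 9.89 with Corin in SKNO-1 (difference -1.36, SE 0.215, adjusted p = 0.000247). NECTIN1 (ENSG00000110400.11, chr11:119623408-119729200, minus strand), a cell adhesion molecule, fell from 24.5 and 18.3 to 10.4 and 10.8 CPM and was at 3.36 and 1.58 CPM with DMSO and 2.76 and 2.50 with Corin (difference -1.11, SE 0.334, adjusted p = 0.0392). Its call was lost in 7 of 16 alternative settings, without any of 6 single libraries and in the fit of 8 libraries, with adjusted p from 0.0796 to 0.176, its value was -1.77 without SKNO-1 DMSO replicate 1 and -0.62 without replicate 2, and the SKNO-1 DMSO libraries differed more than the change.

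The rise restricted to SKNO-1 held 1056 genes, with a median change of 1.491 in SKNO-1 and -0.02 in U-937. In 446 of them the SKNO-1 DMSO libraries averaged under 1 CPM. U-937 held under 1 CPM of 197, and 783 were expressed in U-937 with a log2 change under 0.5 in size. Long noncoding RNAs made up 15.9% of the class and 18.3% of all genes tested. MIAT (ENSG00000225783.8, chr22:26646411-26676475, plus strand), a long noncoding RNA, was at 6.12 and 7.07 CPM in SKNO-1 with DMSO and at 72.2 and 77.1 CPM with Corin. U-937 held 2.54 and 1.61 CPM with DMSO and 2.15 and 1.92 with Corin, with overlap, and the difference was -3.53 (SE 0.286, adjusted p = 1.25e-07). PERP (ENSG00000112378.12, chr6:138088505-138107419, minus strand), a membrane protein of p53-dependent cell death, went from 0.960 and 1.13 to 10.4 and 8.25 CPM in SKNO-1. U-937 held 1.27 and 1.64 CPM with DMSO and 1.49 and 1.26 with Corin (difference -3.23, SE 0.343, adjusted p = 2.99e-06). ERG, an ETS factor of stem cells, went from 76.6 and 81.6 to 183 and 190 CPM in SKNO-1. Levels in U-937 were 5.80 and 5.77 CPM with DMSO and 5.10 and 4.995 with Corin (difference -1.43, SE 0.175, adjusted p = 1.5e-05). MYB, the progenitor transcription factor, rose from 568 and 648 to 987 and 960 CPM in SKNO-1. The U-937 libraries had 605 and 621 CPM with DMSO and 675 and 619 with Corin (difference -0.60, SE 0.121, adjusted p = 0.00254).

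Genes with under 1 CPM in U-937 rest on few counts there. CLEC4A (ENSG00000111729.14, chr12:8123617-8138607, plus strand), a lectin receptor of dendritic cells and monocytes, had 11 counts in the SKNO-1 DMSO pair and 777 with Corin, or 0 and 0.310 CPM with DMSO and 11.6 and 12.1 with Corin. U-937 had 9 and 25 counts in all, and the difference of -4.88 (SE 1.06, adjusted p = 0.00523) lost its call without U-937 DMSO replicate 1 (adjusted p = 0.133). The fitted difference was -10.28 when SKNO-1 DMSO replicate 2 was left out and the remaining DMSO library had 0 counts, so its size is not determined by these libraries.

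The fall restricted to SKNO-1 held 721 genes, of which 696 were expressed in U-937 with a log2 change under 0.5 in size. This class moved with the SKNO-1 DMSO pair described above. The median GC content of its genes was 52.4%, against 43.3% for the shared fall and 47.6% for all genes tested, and 424 of the 721 kept their class without SKNO-1 DMSO replicate 1, 637 without replicate 2 and 478 with the GC trend removed. AGTRAP (ENSG00000177674.16, chr1:11736084-11754802, plus strand), a protein that binds the angiotensin II receptor, was at 22.6 and 11.6 CPM in SKNO-1 with DMSO and at 5.21 and 5.07 with Corin. Its SKNO-1 DMSO libraries were far apart, and U-937 held 27.9 and 23.6 CPM with DMSO and 35.3 and 29.03 with Corin (difference 2.05, SE 0.356, adjusted p = 0.00236). EXOSC4 (ENSG00000178896.9, on chromosome 8), a subunit of the RNA exosome, was at 15.6 and 7.67 CPM with DMSO and 3.54 and 3.49 with Corin in SKNO-1, and at 7.19 and 7.70 CPM with DMSO and 8.75 and 7.67 with Corin in U-937 (difference 1.86, SE 0.326, adjusted p = 0.000891). MIR646HG (ENSG00000228340.6, chr20:60087661-60653784, plus strand), the host transcript of a microRNA, was at 11.3 and 15.1 CPM with DMSO and 3.78 and 3.83 with Corin in SKNO-1 and at 35.8 and 42.95 CPM with DMSO and 32.04 and 46.3 with Corin in U-937 (difference 1.79, SE 0.275, adjusted p = 0.000377). CST7, cystatin F of granules, went from 159 and 124 to 43.3 and 37.8 CPM in SKNO-1. Its U-937 level was 368 and 363 CPM with DMSO and 339 and 285 with Corin (difference 1.57, SE 0.157, adjusted p = 1.46e-06).

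Of 16 genes of cholesterol synthesis and uptake, 15 fell in SKNO-1 and 0 rose, against 15.3% and 18.6% of all genes, with a median of -0.735. In U-937 2 fell and 1 rose, against 3.88% and 6.61% of all genes, with a median of -0.123. With the GC trend removed 5 fell there, against 1356 of all genes in that setting. The difference was higher in U-937 for 11 and lower for 0, a count that was 7 without SKNO-1 Corin replicate 2, at most 14 without any other single library, and 8 in a fit of only the 8 libraries. HMGCS1, the synthase that makes HMG-CoA, was at 388 and 427 CPM in SKNO-1 with DMSO and 146 and 143 with Corin, and at 218 and 226 CPM with DMSO and 217 and 203 with Corin in U-937 (difference 1.42, SE 0.123, adjusted p = 2.46e-07). LSS, which closes the sterol rings, went from 92.9 and 69.3 to 30.2 and 31.2 CPM in SKNO-1. U-937 held 121 and 107 CPM with DMSO and 104 and 100 with Corin (difference 1.24, SE 0.157, adjusted p = 2.27e-05). SQLE, the squalene epoxidase, fell in both lines and more in SKNO-1 (-0.28 and -0.97, difference 0.70, SE 0.115, adjusted p = 0.000421). SREBF2, the transcription factor that drives these genes, had values of -0.17 and -0.20 and was called in neither line.

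Proliferation genes fell in SKNO-1 for 16 of 22 members and in U-937 for 1, against 15.3% and 3.88% of all genes. Their medians were -0.428 and -0.134. The difference was called for 5, all higher in U-937 (5.28% of all genes were): MCM2, MCM5, MCM7, CCNB1 and E2F1. This count was not stable: it was 1 without SKNO-1 Corin replicate 1, 0 without replicate 2, 3 without SKNO-1 DMSO replicate 1, 10 without its replicate 2, 0 without U-937 Corin replicate 1, and 1 without either U-937 DMSO library. With the GC trend removed, 6 fell in U-937 and 15 in SKNO-1, against 1356 and 2558 of all genes in that setting. MCM5, a subunit of the replicative helicase, showed the spread: it was at 145 and 94.8 CPM in the SKNO-1 DMSO libraries, 63.1 and 61.4 CPM with Corin, and 115 and 98.6 CPM with DMSO and 108 and 95.7 with Corin in U-937.

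Interferon-stimulated genes held 6 members of the shared rise, 1 of the shared fall, 2 of the SKNO-1-restricted rise and 1 of the U-937-restricted rise. A further 3 were unresolved and 7 had no call. Of all genes, 6.61% rose and 3.88% fell in U-937, and 18.6% rose and 15.3% fell in SKNO-1. The difference was higher in U-937 for 5.28% of all genes and lower for 7.49%. Of the 20 list members tested, 9 rose and 1 fell in each line, and the difference was higher in U-937 for 1 and lower for 4. The count for U-937 was 5 without its Corin replicate 1 or DMSO replicate 1 and 4 without DMSO replicate 2. BST2 (tetherin, ENSG00000130303.13, chr19:17402939-17405630, minus strand), which holds budding viruses at the cell surface, was at 2.31 and 1.21 CPM in SKNO-1 with DMSO and at 43.6 and 39.1 CPM with Corin. U-937 already held 59.4 and 56.2 CPM with DMSO and had 92.8 and 74.1 CPM with Corin. BST2 was thus part of the shared rise, with a larger change in SKNO-1. SKNO-1 with Corin stayed below U-937 with DMSO, and the difference of -4.03 (SE 0.239, adjusted p = 7.37e-09) was the lowest of the list. BISPR (ENSG00000282851.2, chr19:17405686-17419324, plus strand), a long noncoding RNA that starts next to BST2 and runs the other way, went from 1.23 and 1.21 to 11.6 and 10.97 CPM in SKNO-1. Levels in U-937 were 10.2 and 10.3 CPM with DMSO and 12.4 and 9.58 with Corin (difference -3.10, SE 0.249, adjusted p = 9.41e-08). IFI6, an interferon-induced mitochondrial protein, was part of the shared rise too. It went from 7.19 and 7.08 to 23.9 and 19.98 CPM in U-937 and from 5.19 and 4.57 to 16.3 and 15.3 CPM in SKNO-1 (difference -0.07, SE 0.167, adjusted p = 0.876, not called). The promoters of both are shown because BST2 had the lowest difference of the list and IFI6 one near 0, and both hold the same element. Capitals mark each match to GAAA, any 2 bases and GAAA again (both strands searched), the core of the interferon-stimulated response element, and the windows span 250 bases before to 50 after the RefSeq start (BST2 chr19:17405581-17405880 and IFI6 chr1:27672143-27672442, both minus strand, GRCh38.p14):
BST2 promoter: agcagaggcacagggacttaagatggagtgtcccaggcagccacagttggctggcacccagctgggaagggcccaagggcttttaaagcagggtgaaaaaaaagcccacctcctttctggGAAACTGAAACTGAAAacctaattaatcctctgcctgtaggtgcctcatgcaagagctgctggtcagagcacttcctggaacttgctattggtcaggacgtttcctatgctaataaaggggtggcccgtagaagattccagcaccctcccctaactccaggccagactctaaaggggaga
IFI6 promoter: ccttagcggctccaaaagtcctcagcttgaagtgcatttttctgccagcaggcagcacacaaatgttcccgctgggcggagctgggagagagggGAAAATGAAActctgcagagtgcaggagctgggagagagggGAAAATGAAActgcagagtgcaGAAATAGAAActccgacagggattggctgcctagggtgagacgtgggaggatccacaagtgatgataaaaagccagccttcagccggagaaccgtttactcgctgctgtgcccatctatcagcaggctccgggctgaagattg
BST2 has 2 matches that overlap and begin 130 and 124 bases before the start, and IFI6 has 3 that begin 156, 115 and 93 bases before it, all on the gene's strand. The annotated start of BISPR lies inside the BST2 window, so the 2 genes share these letters. The motif was in 9 of the 12 promoters of the list that the RefSeq table holds and in 3.19% of all. It was in 5.71% of those of the shared rise and in 3.27% of those of the SKNO-1-restricted rise.

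The other 3 members with a lower response in U-937 were effectors against viruses. RSAD2 and MX2 were the members of the SKNO-1-restricted rise, and OAS3 was part of the shared rise. RSAD2 (viperin) went from 18.6 and 19.4 to 87.2 and 82.96 CPM in SKNO-1. The U-937 libraries had 2.36 and 1.93 CPM with DMSO and 1.85 and 1.26 with Corin (difference -2.61, SE 0.242, adjusted p = 5.75e-07). MX2, a GTPase that blocks retroviruses, went from 0.510 and 0.451 to 2.31 and 1.82 CPM in SKNO-1, against 134 and 140 CPM with DMSO and 143 and 130 with Corin in U-937 (difference -2.10, SE 0.248, adjusted p = 1.01e-05). OAS3, which senses double-stranded RNA, went from 0.450 and 0.338 to 1.86 and 2.01 CPM in SKNO-1 and from 26.4 and 22.4 to 30.2 and 32.1 CPM in U-937 (difference -1.94, SE 0.262, adjusted p = 4.25e-05). BST2, MX2 and OAS3 started far lower in SKNO-1 than in U-937, and RSAD2 started higher. IRF9, a subunit of the factor that binds the element, was the 1 member with a higher response in U-937 (0.82, SE 0.213, adjusted p = 0.0149).

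**Figure D3:**
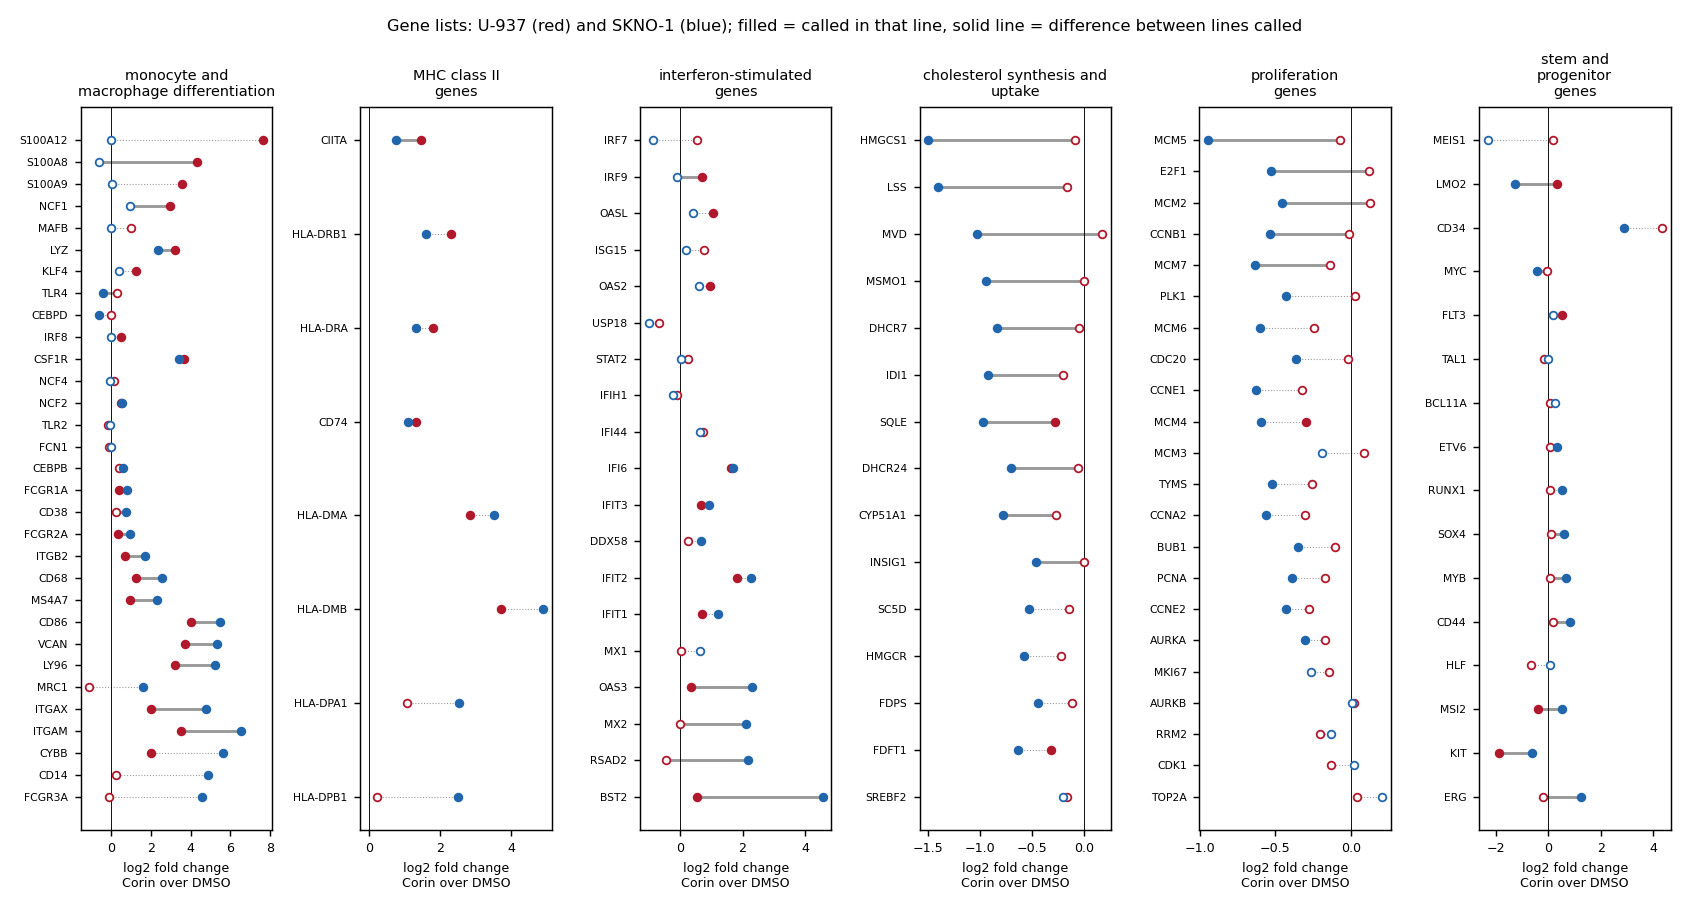
Each panel is a gene list, ordered by the difference between lines, with the log2 fold change with Corin over DMSO on the x axis (scales differ between panels), red for U-937, blue for SKNO-1, filled where called in that line, and a solid line where the difference between lines was called. In the cholesterol panel the blue points of 14 of the 15 genes drawn are filled and below 0, and in the interferon panel BST2, RSAD2, MX2 and OAS3 have the longest solid lines.

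Of 16 stem and progenitor genes tested, 8 rose and 3 fell in SKNO-1 and 2 rose and 2 fell in U-937, where all genes were also called more often in SKNO-1 (33.9% against 10.5%). The difference was higher in U-937 for 2 and lower for 6, against 5.28% and 7.49% of all genes. Besides ERG and MYB, the adhesion receptor CD44 and the factor SOX4 had lower responses in U-937 (-0.66 and -0.51). MYC, the growth regulator, was the second with a higher response in U-937 and lay near the threshold (0.38, SE 0.122, adjusted p = 0.0496). Primary granule genes fell in SKNO-1 for 6 of 12 members, among them MPO and ELANE, enzymes of neutrophil granules (-0.79 and -1.62, with ELANE at 50.7 and 22.2 CPM in the DMSO pair), and 2 rose, while in U-937 2 rose and 0 fell. Of all genes, 15.3% fell and 18.6% rose in SKNO-1, and 6.61% rose and 3.88% fell in U-937. MS4A3, a marker of granulocyte and monocyte progenitors, rose in SKNO-1 (0.84) with a difference of -1.03 (SE 0.171, adjusted p = 0.000424). Of 12 members, 3 had a higher response in U-937 (CST7, CEBPE and RNASE2). More did without SKNO-1 DMSO replicate 2, as did more of all genes. With the GC trend removed, 4 members had a higher and 4 a lower response in U-937, against 1272 and 2753 of all genes in that setting. The median difference of the primary granule genes was then 0.112 in place of 0.421.

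Mast cell, basophil and eosinophil genes rose in SKNO-1 for 7 of 15 members and fell for 4, against 18.6% and 15.3% of all genes. In U-937 0 of 15 were called, against 10.5% of all genes. The difference was called for 2, near the share of all genes (12.8%): SIGLEC8, an inhibitory receptor of eosinophils and mast cells (-3.44, SE 0.614, adjusted p = 0.000785), and PRG2, the eosinophil major basic protein (2.16, SE 0.493, adjusted p = 0.00647). FCER1A, HPGDS and EPX had 0 counts in the 4 U-937 libraries, so that no difference could be measured. Erythroid and megakaryocyte genes had 3 of 7 members that rose in SKNO-1 and 1 that fell, against 18.6% and 15.3% of all genes. In U-937 0 were called, and 0 had a called difference, against 10.5% and 12.8% of all genes. GFI1B, both a factor of that lineage and a recruiter of CoREST, was at 0.120 and 0 CPM in SKNO-1 with DMSO and at 4.49 and 4.05 with Corin, and U-937 had 0 counts with DMSO and 6 with Corin, at least 1.80-fold higher. Of 9 tested neuronal genes that REST and CoREST silence in other tissues, 4 rose and 2 fell in SKNO-1 and 1 rose in U-937. The shares over all genes were 18.6%, 15.3% and 6.61% in that order. The difference was called for 2 of the 9, both higher in U-937 (5.28% of all genes were), and both were falls restricted to SKNO-1. L1CAM, a neural adhesion molecule, had 0 counts in the SKNO-1 DMSO pair and 66 with Corin, at least 23.0-fold higher, and its difference did not pass the test (adjusted p = 0.0527).

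Of 16 CoREST subunits and recruiters, 1 rose in U-937 and 4 rose and 1 fell in SKNO-1, shares near those of all genes (10.5% called in U-937 and 33.9% in SKNO-1). With the GC trend removed, 9 rose in SKNO-1, and the difference was higher in U-937 for 0 and lower for 3. Over all genes, 5462 rose in SKNO-1 in that setting, against 3706 in the main fit, with 1272 higher and 2753 lower differences. KDM1A, HDAC1, HDAC2 and RCOR1 were called in neither line, with log2 changes between -0.27 and 0.01. ZNF217, a zinc-finger partner of CoREST, rose in both, from 92.5 and 91.3 to 206 and 197 CPM in U-937 and from 73.5 and 82.2 to 200 and 189 CPM in SKNO-1 (difference -0.19, SE 0.113, adjusted p = 0.322, not called). CTBP1, a corepressor, was the 1 member with a called difference (0.56, SE 0.168, adjusted p = 0.0341): it was at 61.4 and 44.1 CPM in SKNO-1 with DMSO, where the libraries were far apart, and at 35.3 and 36.3 with Corin, and at 67.9 and 62.97 CPM with DMSO and 66.1 and 64.9 with Corin in U-937.

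The lists that follow stand beside all genes, of which 6.61% rose and 3.88% fell in U-937, and 18.6% rose and 15.3% fell in SKNO-1. The difference was higher in U-937 for 5.28% of all genes and lower for 7.49%. Inflammatory cytokine and NF-kB genes rose in U-937 for 6 of 15 members and in SKNO-1 for 3, with 1 fall, and the difference was higher in U-937 for CCL2 and NFKB1. With the GC trend removed, 6 rose in SKNO-1, and the difference was higher for 3 and lower for 3. Over all genes that setting gave 5462 rises and 2558 falls in SKNO-1, and 1272 higher and 2753 lower differences. NFKB1, a subunit of NF-kB, fell in SKNO-1 from 78.03 and 79.99 to 47.5 and 49.3 CPM and was at 55.7 and 58.8 CPM with DMSO and 56.4 and 54.95 with Corin in U-937 (difference 0.67, SE 0.112, adjusted p = 0.000453). IL1B and CXCL8, an inflammatory cytokine and a neutrophil chemokine, rose in both lines, by 0.93 and 1.65 in U-937 and 0.75 and 0.86 in SKNO-1, with no called difference. Of 16 cytokine receptor and STAT5 feedback genes, 2 rose and 2 fell in U-937 and 3 rose and 6 fell in SKNO-1 (3 fell without SKNO-1 DMSO replicate 1, and 6 rose and 4 fell with the GC trend removed), and the difference was higher in U-937 for 3 and lower for 2. The 3 rises of this list in SKNO-1 were near the share of all genes. BCL2L1, the survival gene of BCL-xL, fell in SKNO-1 by 0.71 on the log2 scale and had -0.03 in U-937 (difference 0.68, SE 0.159, adjusted p = 0.00744). CSF2RA and CSF2RB, which form the receptor for the GM-CSF present only in the SKNO-1 medium, had no called difference (-0.12 and -0.09). Of 14 retinoid response genes, 4 rose in U-937 and 6 rose and 1 fell in SKNO-1, with the difference higher in U-937 for 3 (DHRS9, TGM2 and RDH10) and lower for 3 (CD38, CRABP2 and RARG). RDH10, the retinol dehydrogenase of retinoic acid synthesis, fell in SKNO-1 from 77.9 and 92.99 to 27.9 and 25.95 CPM and was at 17.1 and 21.1 CPM with DMSO and 17.5 and 19.1 with Corin in U-937 (difference 1.61, SE 0.168, adjusted p = 2.39e-06). RARG, a retinoic acid receptor, rose in both lines and more in SKNO-1 (difference -1.99, SE 0.296, adjusted p = 0.000131).

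The same difference was then read in the libraries with ATRA, as ATRA with Corin over ATRA alone in U-937 minus that in SKNO-1. These 8 libraries share none with the contrast above, but they are another condition and not a repeat of it. They also share the fit's gene filter, scaling and estimate of spread, so they are not independent of the sorting. The difference was called for 5247 genes (26.4%), higher in U-937 for 1916 (9.64%) and lower for 3331 (16.8%), and the median over all genes was -0.127. Within each line, ATRA with Corin over ATRA called 8133 genes in U-937 (40.9%) and 8145 in SKNO-1 (41.0%). A higher response in U-937 was called for 56.3% of the U-937-restricted rise and a lower one for 6.59%, and for the SKNO-1-restricted rise the shares were 3.6% higher and 56.1% lower. Opposite genes that rose in U-937 had 58.8% higher and 5.88% lower, and those that rose in SKNO-1 had 1.52% and 63.6%. Of the 51 that rose in U-937, 11 were again called in opposite directions, against 261 of all genes (1.31%), and of the 66 that rose in SKNO-1 21 were, against 312 (1.57%). For the U-937-restricted fall 37.6% were lower and 5.38% higher. The SKNO-1-restricted fall was mixed, with 28.2% higher and 18.4% lower, near the share of lower calls over all genes. Of the 743 genes of the shared rise, 597 rose in both lines with ATRA present, against 1814 of all genes (9.13%), and of the 382 of the shared fall 296 fell in both, against 2061 of all genes (10.4%).

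Some genes restricted to SKNO-1 without ATRA were called in both lines with it. Of the 1056 genes whose rise was restricted to SKNO-1, 380 rose in U-937 in the ATRA libraries, against 19.4% of all genes, and 338 of these rose in both lines. Another 159 of the 1056 fell in U-937, against 21.5% of all genes. Of these, 115 rose in SKNO-1, and that opposite pattern was called for 1.57% of all genes. Of the 721 whose fall was restricted to SKNO-1, 396 fell in U-937 with ATRA and 65 rose, against 21.5% and 19.4% of all genes. CLEC4A was at 0.289 CPM in U-937 with ATRA and 5.78 with both agents, and rose in both lines (4.28 and 4.75). FOS, restricted to U-937 without ATRA, also rose in both lines with it (3.19 in U-937 and 1.12 in SKNO-1), and its difference was still called (2.07, adjusted p = 8.44e-06). DUSP16, opposite without ATRA, rose in both lines with it (1.14 in U-937 and 1.07 in SKNO-1), and so did SOCS2 (0.84 and 0.43). CD180 kept its opposite response, with 3.12 in U-937 and -0.88 in SKNO-1. MGLL and CXorf21 kept a called difference (0.86 and 0.80) but were each called in only 1 line. For ZC3H6 and SV2B the difference was no longer called (adjusted p = 0.463 and 0.0702). Of the U-937-restricted genes, DHRS9 and TENT5C also lost the call (adjusted p = 0.159 and 0.0879), while STS, KIF26B, CCL2, GRIP1 and NECTIN1 kept it. The order of BST2 (0.47 and 3.83) was kept, as was that of MIAT (-3.10 for the difference) and PERP (-3.72). For AGTRAP and EXOSC4 the difference with ATRA was -0.21 and 0.23 and was not called, while for MIR646HG it was 2.15 (adjusted p = 2.26e-05). The proliferation list turned: with ATRA present the difference was lower in U-937 for 21 of 22 genes and higher for 0, against 16.8% and 9.64% of all genes. MCM5 was at a mean of 120 CPM in U-937 with ATRA and 17.0 with both agents, and at 126 and 107 CPM in SKNO-1. MYC fell by 3.11 on the log2 scale in U-937 and by 0.42 in SKNO-1 in these libraries. Of the 16 cholesterol genes, 11 had a higher response in U-937 with ATRA and 0 a lower one, against 9.64% and 16.8% of all genes.

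**Figure D4:**
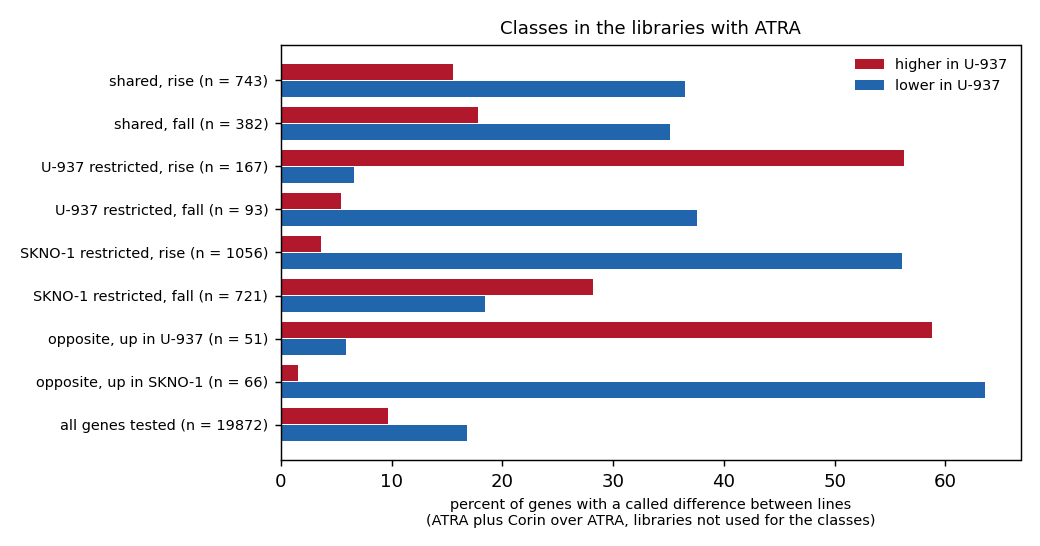
Bars give, for each class sorted from the Corin and DMSO libraries, the percent of its genes with a called difference between lines in the 8 libraries with ATRA, red for a higher and blue for a lower response in U-937, with all 19872 genes at the bottom. The restricted rises and the opposite classes are mostly one-coloured, from 56.1% to 63.6% in their own direction, while the SKNO-1-restricted fall has 28.2% and 18.4%.

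The authors' deposited table of Corin against control in SKNO-1 listed 2017 genes higher and 1742 lower at an adjusted p under 0.05, and the authors' deposited table for U-937 listed 990 and 598. By the authors' deposited tables, 731 of the 1056 genes of the SKNO-1-restricted rise were higher in SKNO-1, and 5 were higher and 2 lower in U-937. By the authors' deposited tables, 138 of the 167 genes of the U-937-restricted rise were higher in U-937 and 0 were called in SKNO-1. Of the 51 opposite genes that rose in U-937, the authors' deposited tables called 43 higher in U-937 and 22 lower in SKNO-1. These tables come from the same libraries and hold no contrast between the lines.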

How the data were processed

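RNA of 16 libraries, 2 per group, was measured by RNA sequencing. The authors deposited a table of estimated counts per gene (expected counts, hg38). The submitters' processing notes name Trimmomatic, STAR, RSEM, deepTools and DESeq2. The annotation release and the use of strand in counting are not given in the sources used here, so genes that overlap or share sequence are uncertain. The authors' deposited Corin tables give log2 fold changes and p-values and served only as a side comparison.

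Estimated counts were rounded to whole numbers, filtered with filterByExpr (19872 of 60603 genes remained) and scaled by TMM. All 16 libraries entered 1 robust quasi-likelihood fit in edgeR 4.0.16 (R 4.3.3, limma 3.58.1), with 8 residual degrees of freedom, and p-values were adjusted over all genes tested. DESeq2 1.42.0 was an alternative, as were other scalings, filters and thresholds, a replicate block, removal of the GC trend and leaving out each library. Positions are from GENCODE release 44 on GRCh38.

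Named genes had at least 5 CPM on average in each line where called, and both Corin libraries beyond both DMSO libraries. Shared and opposite genes were ranked by the smaller of the 2 changes and restricted ones by the difference, and members of the gene lists could be named too. The gene classes and lists were chosen with earlier results of these data known. Replicate numbers did not pair the libraries: their deviations correlated at 0.066 between the SKNO-1 groups and at -0.086 between those of U-937. The pair of ATRA groups correlated at 0.228 for SKNO-1 and at 0.145 for U-937, and over all pairs of groups within a line it ran from -0.471 to 0.398. A few named genes and list members are counted but not reported here by name, and are not drawn.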

Additional observations from a re-analysis of the deposited data

Results flagged for a closer look

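The lines differed in their response to Corin, by a test of the difference itself, for 2538 genes with Corin over DMSO and for 5247 genes with ATRA and Corin over ATRA. The named genes below passed the same test, and values are the log2 response in U-937 minus that in SKNO-1. With 2 libraries per group, single libraries were not tested for standing apart.

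Among genes that rose in both lines, the difference was -3.02 for ITGAM, -1.58 for VCAN and -1.55 for MS4A4A, so all 3 rose more in SKNO-1. Among opposite genes that rose in U-937 it was 3.69 for CD180, 1.57 for MGLL and 1.51 for CXorf21. Among those that rose in SKNO-1 it was -2.57 for DUSP16, -1.76 for SV2B and -1.29 for ZC3H6.

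Genes restricted to U-937 had differences of 3.03 for FOS, 3.03 for STS, 2.99 for CCL2, 2.85 for DHRS9 and 2.32 for KIF26B where they rose. Where they fell, the values were -1.36 for GRIP1, -1.30 for TENT5C and -1.11 for NECTIN1.

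Genes restricted to SKNO-1 had differences of -3.53 for MIAT, -3.23 for PERP, -3.10 for BISPR and -4.88 for CLEC4A where they rose, the last with few counts and at -10.28 without SKNO-1 DMSO replicate 2. Where they fell, the values were 2.05 for AGTRAP, 1.86 for EXOSC4 and 1.79 for MIR646HG.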

How the results depend on the processing

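Of the 28 named genes, 23 had the same call for their difference in every alternative run. No called difference turned in sign, while that of IGLL1, not called and -0.11, was 0.26 without SKNO-1 DMSO replicate 2 and 0.04 without U-937 DMSO replicate 1. With only the 8 libraries compared, the difference was called for 1388 genes and the U-937 response for 1134, and the classes held 617 shared, 124 U-937-restricted, 1020 SKNO-1-restricted and 56 opposite genes. With the GC trend removed these were 4025 and 3457, with 1904 shared, 463 U-937-restricted and 299 opposite genes. At an adjusted p under 0.01 they were 1298 and 1105, with 3482 for the difference with ATRA, and 576, 122, 943 and 47 genes in the classes in that order. With a log2 value of at least 1 also asked for, they were 1184 and 671, with 2520 in SKNO-1 and 2554 for the difference with ATRA, and 314, 91, 843 and 11 genes in the classes.

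Leaving out 1 library at a time gave 1524 to 4471 genes for the difference, 4053 to 4848 for the difference with ATRA, 1136 to 3206 in U-937 and 4409 to 7299 in SKNO-1. The classes ranged from 643 to 1633 shared, 143 to 451 U-937-restricted, 1025 to 3033 SKNO-1-restricted and 61 to 353 opposite genes. U-937 calls moved by over 1.5 times without SKNO-1 DMSO replicate 1 (3206) or 2 (3191), U-937 Corin replicate 1 (1328) or 2 (1325), and U-937 DMSO replicate 1 (1158) or 2 (1136), and SKNO-1 calls without SKNO-1 Corin replicate 2 (4409). The cause was not tested.

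With a replicate block, which the check of pairing did not call for, the difference was called for 2094 genes, the U-937 response for 1701 and the SKNO-1 response for 6277, with 4853 for the difference with ATRA and 925 shared, 211 U-937-restricted, 1470 SKNO-1-restricted and 92 opposite genes. The counts of list members and of genes that stay in a class under each setting, and the search for the interferon response element, were chosen after seeing the data. With 2 libraries per group, small differences could not be detected, and genes under a few counts in 1 line could not be sorted.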
